A study of Mus musculus with 6 samples.

Results

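Renin, encoded by Ren1, and 6 other genes of the renin-angiotensin system were examined in RNA-seq of the mouse anterior prostate: Agt, Ace, Agtr1a, Agtr2, Atp6ap2 and Enpep. These 7 genes were chosen from measured values of these mice, with renin as the transcript most strongly lost, and are 7 of the 54532 rows with a gene name, matched by symbol. Their differences between genotypes are therefore given as a description, with no test. One library was made from whole anterior prostate (AP) of each of 6 male mice at 20 weeks of age, and the comparison addresses what overactive Notch1 signaling does to gene expression in this gland. The 3 OEx mice were Pbsn-Cre Rosa26 N1ICD/+, in which Cre, driven by the probasin promoter in prostatic epithelium, switches on the Notch1 intracellular domain (N1ICD), the active form of the receptor. The study describes the 3 Ctrl mice as Rosa26 N1ICD/+, so they carried the same silent allele without Cre, while the sample labels call them wild type. Pbsn-Cre reaches epithelial cells only, and the whole gland also holds stroma, vessels and leukocytes, which this promoter does not target. The labels do not say whether the 6 mice came from separate litters, so the p-values given for other genes measure the spread between these samples.

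Renin is the aspartic protease that cuts angiotensinogen (Agt) to angiotensin I, and angiotensin-converting enzyme (Ace) turns that peptide into angiotensin II. Angiotensin II acts through the receptors encoded by Agtr1a and Agtr2, and aminopeptidase A (Enpep) trims it to angiotensin III. Atp6ap2 encodes the (pro)renin receptor, which is also an accessory subunit of the vacuolar proton pump (V-ATPase). Outside the kidney, the coagulating gland of the mouse, which is the AP, is a known site of renin, where secretory epithelial cells make it.

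The start regions of the genes with the clearest differences are shown first, since Ren1 and Ace were lower and Atp6ap2 was higher in OEx mice. RefSeq start windows of GRCm38.p6, with 250 bases before and 50 after a start, were matched for 6 of the 7 genes, in 7 windows. Ren1 is at chr1:133350510-133360325 on the plus strand, and its window is chr1:133350424-133350723. Ace is at chr11:105967945-105989964 on the plus strand, and the first of its 2 windows is chr11:105967698-105967997. Atp6ap2 is at chrX:12587801-12617049 on the plus strand, with the window chrX:12587509-12587808. Each sequence is 5′ to 3′ on the plus strand, with the motifs that were searched in capitals.
Ren1: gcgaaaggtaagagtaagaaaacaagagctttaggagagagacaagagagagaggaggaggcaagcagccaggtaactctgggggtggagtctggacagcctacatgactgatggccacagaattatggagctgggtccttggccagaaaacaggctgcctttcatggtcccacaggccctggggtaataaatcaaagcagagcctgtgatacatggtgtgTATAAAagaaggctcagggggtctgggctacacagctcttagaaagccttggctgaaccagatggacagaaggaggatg
Ace: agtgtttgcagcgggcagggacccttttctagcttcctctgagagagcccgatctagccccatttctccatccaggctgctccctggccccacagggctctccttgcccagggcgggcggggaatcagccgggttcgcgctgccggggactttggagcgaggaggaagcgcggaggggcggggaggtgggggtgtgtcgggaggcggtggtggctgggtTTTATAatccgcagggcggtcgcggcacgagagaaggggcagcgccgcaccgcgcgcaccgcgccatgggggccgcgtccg
Atp6ap2: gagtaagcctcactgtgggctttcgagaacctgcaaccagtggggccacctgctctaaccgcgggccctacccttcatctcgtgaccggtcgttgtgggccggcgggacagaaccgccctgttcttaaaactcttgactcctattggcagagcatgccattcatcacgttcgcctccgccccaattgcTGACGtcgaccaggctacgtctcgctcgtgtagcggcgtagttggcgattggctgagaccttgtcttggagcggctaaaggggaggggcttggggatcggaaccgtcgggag

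In the Ren1 window, the capitals mark TATAAA, the TATA box, at positions -29 to -24 from the start. TATAAA was in 4 of the 7 windows, those of Ren1, Agt, Ace and Enpep, and in 13.6% of all 32851 windows of this length. In the Ace window it lies on the minus strand at -31 to -26. In the Atp6ap2 window, the capitals mark the CRE half-site TGACG at -62 to -58, which was in 20.8% of all windows. TGGGAA, the core to which the Notch partner RBPJ binds, was in 25.6% of all windows and in 0 of the 7. The full CRE TGACGTCA (1.79% of all windows) and the E-box CACGTG (7.15%) were also in 0 of the 7. Both strands were searched, the full CRE contains the half-site, and a match describes the letters of a window only. The RefSeq start used for Ren1 lies within the GENCODE gene, downstream of its first base.

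The deposited values are FPKM, fragments per kilobase of gene divided by a denominator for each mouse, so levels of different genes can be compared per length. Reads recovered from them with GENCODE exon lengths totalled 14772005 to 17009325 on annotated genes in OEx mice and 17236735 to 18655462 in Ctrl mice. The denominator was 1.22 to 1.34 times these reads in OEx and 0.726 to 0.815 times in Ctrl mice. Compared with a scaling to these reads, it lowers OEx values relative to Ctrl. Notch1 was at 41.9, 47.6 and 78.9 FPKM in OEx mice and at 5.18, 5.55 and 3.34 FPKM in Ctrl mice, as their labels say, although reads from the transgene and from the resident gene are not separated. The prostate secretory genes Pbsn and Defb50 were at 456 FPKM or more in all 6 mice. Replicates 1 and 2 of each group lay close together, with a squared deviation of 2.30 (OEx) and 2.17 (Ctrl) times the counting noise, against 10.2 to 12.3 for replicate 3 and its group mates. They differed by more than counting noise and were kept as separate mice because the labels list them so. Libraries of the same mouse or litter could lie as close, so each SD, SE and FDR with n = 3 may rest on fewer independent animals, which was not tested. Ctrl replicate 3 stood apart by 4 of 8 seminal vesicle genes, Svs2, Svs4, Svs5 and Pate4, at 479 to 10674 FPKM. Of the other 4, Svs3a was listed at 0 there. The list summed to 16128 FPKM in that mouse and to 0.578 to 4.36 FPKM in the other 5. The sum of all FPKM was 252054 to 270198 in OEx mice and 464188 to 523539 in Ctrl mice, so a scaling to equal sums moves every gene of OEx mice up relative to Ctrl.

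Across all genes, limma on log2(FPKM + 1) tested the 12553 rows whose mean reached 1 FPKM. A row was called where the FDR (Benjamini-Hochberg) was under 0.05 and the log2 difference above 1 in size, a change of 2-fold. limma called 28.2% of the rows, 12.8% higher and 15.5% lower in OEx mice, and in 72.5% the FPKM ranges of the groups did not overlap. Of the 7 renin-angiotensin genes, 4 passed the filter on low values: Agtr1a and Atp6ap2 met the criteria as higher, and Ren1 and Ace as lower. Since the same contrast chose them, nothing is read from this count. The median log2 difference over all rows was -0.07. Scaled to equal sums per mouse it was 0.67, and 90.7% of the calls were then higher, against 45.2% with the deposited scaling and 65.2% with upper-quartile scaling. None of the 4 genes changed direction under these scalings.

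**Figure D1:**
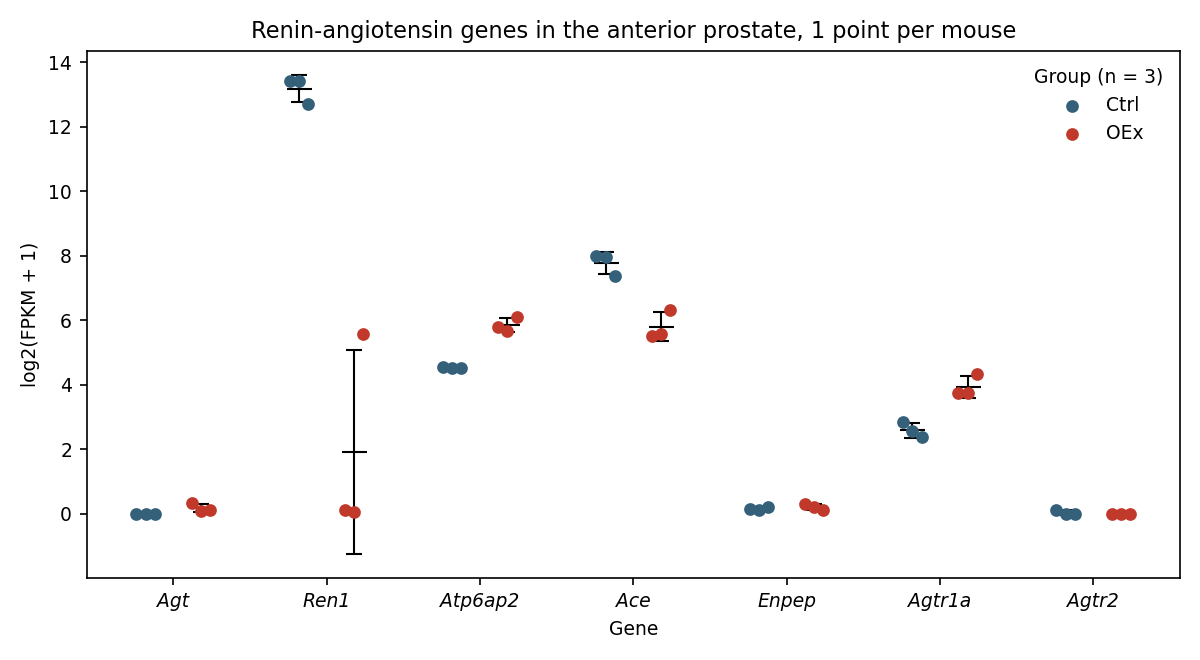
Level of each renin-angiotensin gene as log2(FPKM + 1), with 1 point per mouse, Ctrl in blue and OEx in red, and black bars for the mean and SD of 3 mice. Ren1 goes from the highest level of the 7 genes in Ctrl mice to near 0 in OEx replicates 1 and 2 and to an intermediate level in OEx replicate 3.

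Angiotensinogen, the substrate, was at the limit of detection. Agt (chr8:124556534-124569706, minus strand) was at 0.265, 0.0694 and 0.0879 FPKM in the OEx mice, from 10, 3 and 3 reads. It was listed at 0 in all 3 Ctrl mice, where 0 reads allow up to 3. With 2 of the OEx mice at that limit, no fold is given.

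Ren1 was among the most abundant transcripts of the Ctrl gland. It was at 11079, 11093 and 6630 FPKM in the Ctrl mice, from 229671, 237977 and 166937 reads, and ranked 4, 4 and 7 among all genes by FPKM. It took 1.33%, 1.34% and 0.895% of the reads on annotated genes. In the OEx mice it was at 0.0908, 0.0528 and 47.0 FPKM, from 3, 2 and 1406 reads. The groups did not overlap, and the highest OEx mouse lay far below the lowest Ctrl mouse. The 3 Ctrl mice spanned less than 2-fold, while OEx replicate 3 stood well above the other two OEx mice.

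The means of Ren1 were 15.7 ± 27.1 FPKM in OEx and 9601 ± 2573 FPKM in Ctrl mice (SD, n = 3), and the OEx mean was set by replicate 3. The log2 difference, OEx minus Ctrl, was -11.26 (SE 1.44). Without OEx replicate 3 it was -13.09 (SE 0.247), and without Ctrl replicate 3 it was -11.51 (SE 1.78). Ctrl replicate 1 was 236-fold above OEx replicate 3 (95% counting interval 224 to 249). It was 122080-fold above OEx replicate 1, where 3 reads leave an interval from 41773 to 591980. The size of the loss in OEx replicates 1 and 2 is thus known only within a factor of more than 10, since so few reads remained. In bulk tissue, fewer renin-making cells and less renin RNA per cell cannot be told apart. Some mouse strains carry Ren2, a near-identical second renin gene that was not analysed here, so its reads could be part of the Ren1 value.

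OEx replicate 3 kept 1406 reads of Ren1, 0.00952% of its reads (95% Clopper-Pearson interval 0.00903 to 0.0100, counting error only). Its FPKM was 518-fold that of replicate 1 (interval 177 to 2515) and 891-fold that of replicate 2 (246 to 7361). Over the 12763 rows whose OEx mean reached 1 FPKM, the median ratio of replicate 3 to the mean of replicates 1 and 2 was 1.06. Ren1, with a ratio of 655, ranked 10, where rows listed at 0 in replicates 1 and 2 were placed above every finite ratio. Ren1 reached that OEx mean through replicate 3 alone, so its rank is only a description. Notch1 was also highest in replicate 3 among the OEx mice, and a link between the levels of Notch1 and Ren1 in that mouse was not tested.

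Marker genes of other cell types also set OEx replicate 3 apart. The 6 fibroblast genes summed to 25.1 FPKM there and to 250 and 252 FPKM in OEx replicates 1 and 2, against 53.1 to 94.7 FPKM in Ctrl mice, and none of the 6 was at 0 in any mouse. The 5 leukocyte genes summed to 4.36 FPKM in replicate 3, 19.1 and 18.7 FPKM in the other two, and 4.35 to 10.3 FPKM in Ctrl mice, with Cd79a at 0 in replicate 3. The 4 basal epithelial genes summed to 15.9 FPKM in replicate 3 and to 6.79 and 7.05 FPKM in the other two, against 212 to 249 FPKM in Ctrl mice. Of the basal sum of replicate 3, Krt15 made up 10.6 FPKM, and Krt14, at 2.30 FPKM, was close to the 2.17 and 2.29 FPKM of OEx replicates 1 and 2. Krt5, at 2.60 against 1.32 and 1.45 FPKM, and Trp63, at 0.423 against 0.233 and 0.141 FPKM, were also higher in replicate 3. The smooth muscle genes summed to 419 FPKM in replicate 3 and to 505 and 501 FPKM in OEx replicates 1 and 2, a smaller gap than for the fibroblast genes. Des was at 48.3 FPKM in replicate 3 against 105 and 108 FPKM, and Cnn1 was at 63.1 against 65.3 and 64.1 FPKM. Acta2, Actg2 and Tagln were also lowest there among the OEx mice, while Myh11 was higher, at 52.0 against 33.4 and 34.3 FPKM. The part of these differences in its Ren1 level was not tested. Ctrl replicate 3, with the seminal vesicle genes, had the lowest Ren1 level of the Ctrl mice, 1.67-fold below each of the other two, and the part of that material in its level was not tested either.

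**Figure D2:**
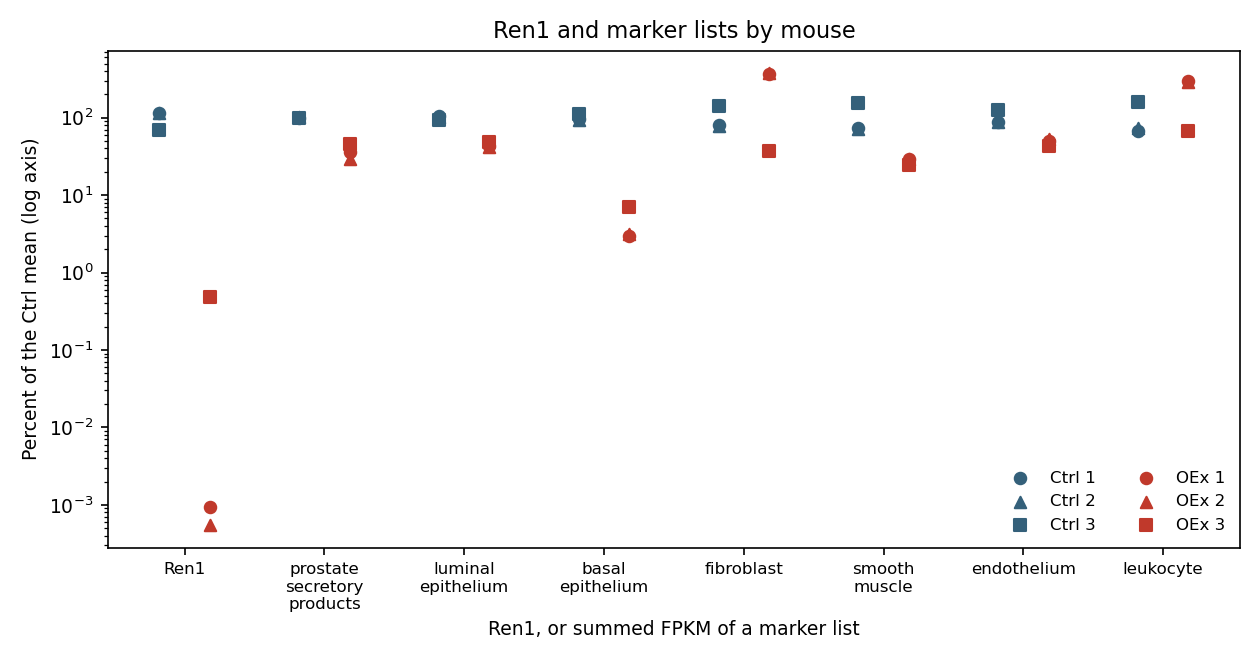
Ren1 FPKM and the summed FPKM of 7 marker lists in each mouse, as a percent of the Ctrl mean on a log axis, with Ctrl in blue, OEx in red and a symbol for each replicate number. Ren1 spans a far wider range than the lists: OEx replicates 1 and 2 together average 0.000748% of the Ctrl mean and OEx replicate 3 lies at 0.490%. Ren1 is a single gene chosen for its loss, while each list is a sum led by its most abundant genes. Genes of a list can also move in opposite directions, as the secretory genes did, so the spans are not like for like.

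Renin RNA was reduced further than most other abundant transcripts of the gland. Renin was chosen as the transcript most strongly lost, so its place among them is a description and nothing is read from it. Of the 50 rows whose Ctrl mean reached 1000 FPKM, 46 were lower in every OEx mouse than in every Ctrl mouse, and the median OEx mean was 40.1% of the Ctrl mean. Ren1 was at 0.164%. In OEx replicates 1 and 2, only 9530003J23Rik, listed at 0 in both, lay further below its Ctrl mean among these rows. By the mean of all 3 OEx mice, Svs2 and Svs5, whose Ctrl mean came from Ctrl replicate 3 alone, were lower still. Among other secretory genes, Tgm4, the AP transglutaminase that clots the ejaculate, fell by 5.44 on the log2 scale (SE 0.636, limma FDR = 3.91e-04). Sbp fell by 5.39 (SE 0.564, FDR = 2.47e-04), and Spink1, a trypsin inhibitor of the seminal fluid, fell by 4.89 (SE 0.605, FDR = 4.93e-04). Tgm4, Sbp and Spink1 were also higher in OEx replicate 3 than in the other two, for example 445 against 90.7 and 92.3 FPKM for Tgm4. Pbsn itself, whose promoter drives Cre, fell by 2.60 (SE 0.356, FDR = 7.76e-04). Not every secretory gene was lower: Defb50, a defensin, rose by 3.26 (SE 0.197, FDR = 4.11e-05) and Msmb, a secreted protein of the prostate, rose by 4.60 (SE 0.158, FDR = 1.72e-05). In all, 4 of the 6 secretory genes fell and 2 rose, with a median log2 difference of -3.75.

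Markers of the luminal epithelium, the layer that secretes, were detected in all 6 mice. Krt8, a luminal keratin, was at 291 to 336 FPKM in OEx mice and 405 to 430 FPKM in Ctrl mice, and the 5 luminal genes together were at 1202 to 1419 FPKM against 2676 to 3047 FPKM. Of the 5, 3 fell (Krt18, Hoxb13 and Cd24a), with a median log2 difference of -1.32, and with equal sums 0 were called and the median was -0.43. All 4 basal genes fell, with a median of -4.11, and were called lower with equal sums as well.

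Among the other cell types, limma called all 6 smooth muscle genes lower, with a median log2 difference of -1.66. With equal sums the median was -0.87 and only Cnn1 (-1.52) was called. The smooth muscle sum was 419 to 505 FPKM in OEx and 1277, 1252 and 2671 FPKM in Ctrl mice, highest in the Ctrl mouse with the seminal vesicle genes, and without that mouse 4 of the 6 were called. limma called 0 of the 6 fibroblast genes and 0 of the 2 leukocyte genes tested, with 0 at an unadjusted p under 0.05 and 0 by limma-voom. Without OEx replicate 3, however, 4 of the 6 fibroblast genes and both tested leukocyte genes were called higher. With equal sums, Lum (2.14) and Adgre1 (1.70) were called higher. Ptprc, a leukocyte gene that did not pass the filter, was at 1.85, 1.55 and 0.427 FPKM in OEx mice. In Ctrl mice it was at 0.0742, 0.114 and 0.201 FPKM, and the groups did not overlap. Cd3e and Cd79a did not pass the filter either, and their groups overlapped. limma also called 0 of the 5 endothelial genes. Of these, 3 (Pecam1, Cdh5 and Vwf) were lower at an FDR under 0.05 and missed only the fold criterion, and limma-voom called 3 lower.

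Of the 4 markers of kidney renin cells, 3 were tested and limma called none. Rgs5, at 0.995 (SE 0.263, limma FDR = 0.0139), lay just under the fold criterion, and limma-voom and equal sums called it. Gja4 had a difference of -0.22 (SE 0.183, FDR = 0.314). Gja5, which did not pass the filter, was at 0.558, 0.647 and 0.174 FPKM in OEx mice. In Ctrl mice Gja5 was higher, at 1.15, 0.874 and 1.37 FPKM. The groups did not overlap for Rgs5 and Gja5 and overlapped for Akr1b7 and Gja4. Akr1b7, an aldo-keto reductase of those cells, was at 0.939, 1.57 and 8.43 FPKM in OEx and at 0.499, 0.603 and 1.85 FPKM in Ctrl mice. It was highest in the OEx mouse that kept most Ren1, while in the Ctrl mice, where Ren1 was abundant, it was low.

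Angiotensin-converting enzyme was the second most abundant of the 7 genes in the Ctrl gland. Ace was at 253, 251 and 166 FPKM in Ctrl and at 45.1, 46.5 and 79.0 FPKM in OEx mice, from 4758 to 17187 reads per mouse. The groups did not overlap, and in both groups replicate 3 lay toward the other group. The means were 223 ± 50 and 56.9 ± 19.2 FPKM (SD, n = 3), 3.93-fold lower in OEx mice. The log2 difference was -1.98 (SE 0.265), -1.08 with equal sums per mouse and -1.69 with upper-quartile scaling. An antisense gene, Gm11651, overlaps Ace, and reads of either could be counted for the other where strand was not used.

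Enpep, which takes angiotensin II to angiotensin III, was barely detected. Enpep (chr3:129269175-129332720, minus strand) was at 0.234, 0.149 and 0.0942 FPKM in OEx and at 0.119, 0.0821 and 0.154 FPKM in Ctrl mice, from 5 to 22 reads. The groups overlapped, and a difference was not detectable at this depth.

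Other enzymes that make or break angiotensin peptides were measured from a wider list of 26 pathway genes, of which 25 were in the table and 14 passed the filter. One rose, 1 fell and 12 were not called by limma, with a median log2 difference of 0.01 against -0.07 over all rows. Mme, neprilysin, a membrane peptidase that degrades angiotensin and other small peptides, was at 92.5, 85.4 and 126 FPKM in OEx mice and at 7.57, 7.12 and 7.18 FPKM in Ctrl mice. Every OEx mouse exceeded every Ctrl mouse, and Mme rose by 3.60 on the log2 scale (SE 0.150, limma FDR = 2.09e-05). Mme thus moved opposite to Ace, another membrane peptidase of the same pathway. Thop1, thimet oligopeptidase, which cuts angiotensin I in the cytosol, was at 7.29, 6.55 and 7.53 FPKM in OEx and at 24.3, 21.8 and 20.1 FPKM in Ctrl mice. It fell by 1.5 (SE 0.101, FDR = 5.34e-05), and with equal sums, at -0.68, it was no longer called.

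Among the enzymes that were not called, Lnpep, the insulin-regulated aminopeptidase that binds angiotensin IV, was at 4.58 to 5.02 FPKM in OEx and 1.75 to 2.03 FPKM in Ctrl mice. Its log2 difference of 0.99 (SE 0.0932, limma FDR = 1.62e-04) lay just under the fold criterion, which it passed with equal sums (1.67) and with upper-quartile scaling (1.21). It also passed without OEx replicate 2 (1.01), OEx replicate 3 (1.01) or Ctrl replicate 3 (1.03). Cathepsin B (Ctsb), which can cut prorenin to renin, had a difference of 0.52 (SE 0.131, FDR = 0.0117), and with equal sums, at 1.40, it was called higher. Prolyl endopeptidase (Prep) had one of -0.56 (SE 0.166, FDR = 0.0224) and cathepsin A (Ctsa) one of -0.32 (SE 0.0882, FDR = 0.0155), both positive with equal sums (0.16 and 0.55). Relative to the median of all rows, both stayed lower under both scalings, Prep at -0.48 and -0.51 and Ctsa at -0.25 and -0.12. Anpep, aminopeptidase N, was at 6.38 ± 1.07 FPKM in OEx and 6.33 ± 0.277 FPKM in Ctrl mice (SD, n = 3). The chymase Cma1, the mast cell enzyme that also makes angiotensin II, was at 2.12, 1.36 and 0.203 FPKM in OEx and at 1.10, 1.20 and 2.41 FPKM in Ctrl mice, with overlapping groups. The sum of the 5 mast cell genes, Cma1 among them, ran from 1.05 to 6.07 FPKM in OEx and from 2.97 to 8.38 FPKM in Ctrl mice. Of the 5, 4 were lowest in OEx replicate 3 among the OEx mice, with Cpa3 at 0 there, while Kit, at 0.491 FPKM, was highest there.

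Of the prorenin-processing proteases, Pcsk5 was at 2.56, 2.55 and 0.142 FPKM in OEx and at 0.411, 0.413 and 0.570 FPKM in Ctrl mice. OEx replicate 3 lay below all Ctrl mice and the other two above them, with a difference of 0.74 (SE 0.443, limma FDR = 0.181). Without replicate 3 it was 1.28, and 3 of the 14 pathway genes were then called higher: Mme, Lnpep and Pcsk5. Klk1, Ctsg, Cyp11b2 and Mrgprd had at most 2 reads in any mouse.

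**Figure D3:**
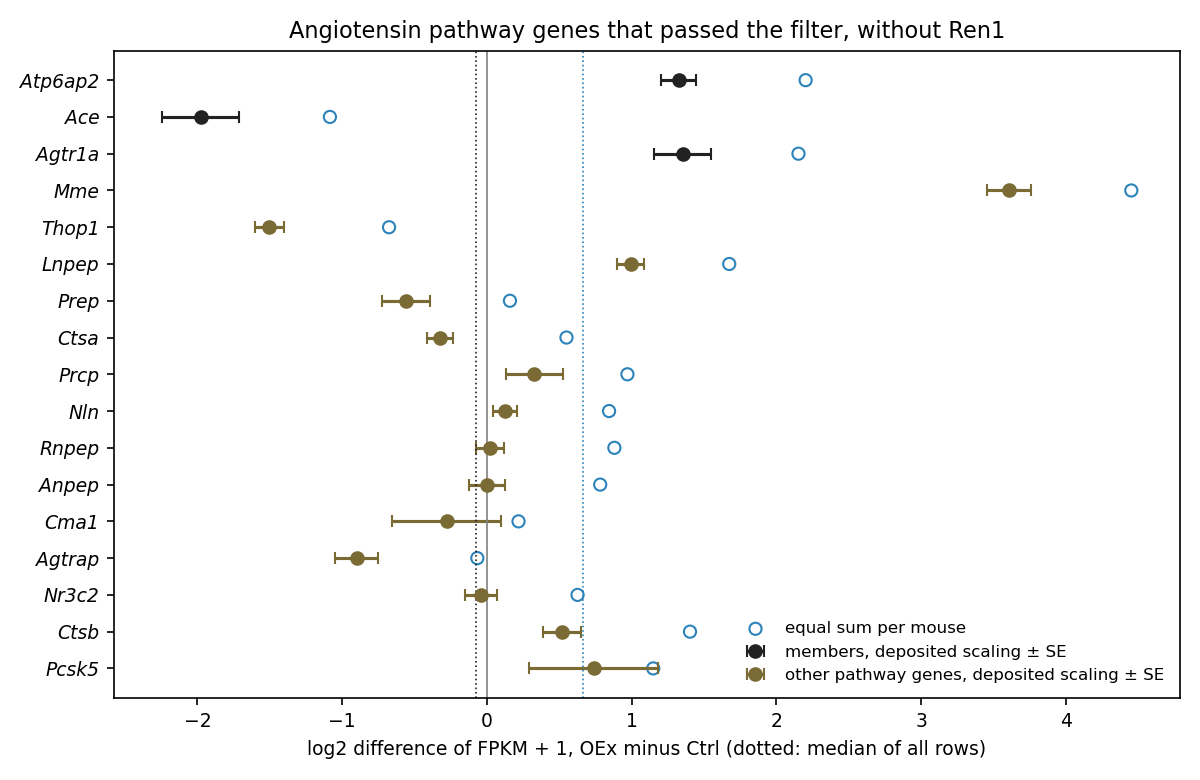
log2 difference of FPKM + 1, OEx minus Ctrl, for 3 renin-angiotensin genes (black) and 14 other pathway genes (brown) that passed the filter, with bars of 1 SE; open circles are the values after scaling to equal sums, and dotted lines are the medians of all rows under each scaling. Mme at 3.60 lies far to the right, Ace at -1.98 and Thop1 at -1.50 to the left, and most peptidases lie close to the median of all rows.

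Of the angiotensin II receptors, only Agtr1a passed the filter. Agtr1a (chr13:30336441-30382867, plus strand), the receptor through which angiotensin II constricts vessels and releases aldosterone, was at 12.6, 12.4 and 19.2 FPKM in OEx mice, from 698, 789 and 965 reads. In Ctrl mice it was at 6.20, 4.88 and 4.20 FPKM, from 216, 176 and 178 reads. The groups did not overlap, and OEx replicate 3 was highest. The means were 14.7 ± 3.88 and 5.09 ± 1.01 FPKM (SD, n = 3), 2.89-fold higher in OEx mice. The log2 difference was 1.35 (SE 0.199), and 2.15 with equal sums. A second gene, Gm48161, lies inside an intron of Agtr1a. Agtr2 (chrX:21484544-21489164, plus strand), the receptor that mostly opposes Agtr1a, had 4 reads in Ctrl replicate 1 (0.0961 FPKM) and was listed at 0 in the other 5 mice.

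Agtr1b, the second mouse copy of the receptor, had at most 4 reads in a mouse. Mas1, the receptor of the shorter peptides, was at 0.249, 0.267 and 0.698 FPKM in OEx mice, from 13, 16 and 33 reads, and had at most 1 read in each Ctrl mouse. It did not pass the filter, and its groups did not overlap. Agtrap, an adaptor that takes Agtr1a off the cell surface, was at 8.52 to 10.2 FPKM in OEx and 14.4 to 20.9 FPKM in Ctrl mice. Its log2 difference was -0.90 (SE 0.150, limma FDR = 0.00184), under the fold criterion. With equal sums it was -0.07, which is -0.73 relative to the median of all rows under that scaling. Without Ctrl replicate 3 it was -1.05 and was called. Receptor and adaptor thus had differences of opposite sign with the deposited scaling. The mineralocorticoid receptor Nr3c2, on which aldosterone acts, was at 2.52 to 3.02 FPKM in OEx and 2.51 to 3.12 FPKM in Ctrl mice, with a difference of -0.04 (SE 0.111, FDR = 0.743).

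Atp6ap2, the (pro)renin receptor, was higher in OEx mice. It was at 54.5, 50.5 and 68.1 FPKM in OEx and at 22.5, 22.0 and 22.2 FPKM in Ctrl mice, from 737 to 3216 reads per mouse. The Ctrl mice were nearly equal, every OEx mouse lay above them, and OEx replicate 3 was again the highest. The means were 57.7 ± 9.20 and 22.2 ± 0.262 FPKM (SD, n = 3), 2.59-fold higher, with a log2 difference of 1.33 (SE 0.120) and 2.20 with equal sums.

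The other genes of the proton pump mostly had negative differences with the deposited scaling, 13 of 14, with Atp6v1a at 0.11. Of these 14 V-ATPase genes, all of which passed the filter, limma called 7 lower and 7 not at all. None was called higher, by limma-voom either, and 0 were higher at an unadjusted p under 0.05, both with the deposited scaling. Their median log2 difference was -0.91, or -0.06 with equal sums, which is -0.72 relative to the median of all rows under that scaling. With equal sums 0 of the 14 were called in either direction and 7 had positive differences, 4 of them with an FDR under 0.05 and Atp6v1a, at 0.94, the largest. Of the negative differences under that scaling, 5 had an FDR under 0.05, with Atp6v0e, at -0.71, the largest in size. With upper-quartile scaling 4 were called lower. Atp6v0e, of the membrane sector, fell from 64.6 ± 13.2 to 20.6 ± 0.393 FPKM (SD, n = 3; log2 -1.59, SE 0.143, limma FDR = 1.38e-04). Atp6v1g1, of the stalk, fell from 113 ± 4.41 to 41.5 ± 2.32 FPKM (log2 -1.43, SE 0.0814, FDR = 3.59e-05). Atp6ap1, the other accessory subunit, was at 54.4 to 61.1 FPKM in OEx and 73.7 to 88.8 FPKM in Ctrl mice, with a difference of -0.53 (SE 0.104, FDR = 0.00368) that was 0.35 with equal sums. Under both scalings, the log2 difference of Atp6ap2 was above that of each of the 14.

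**Figure D4:**
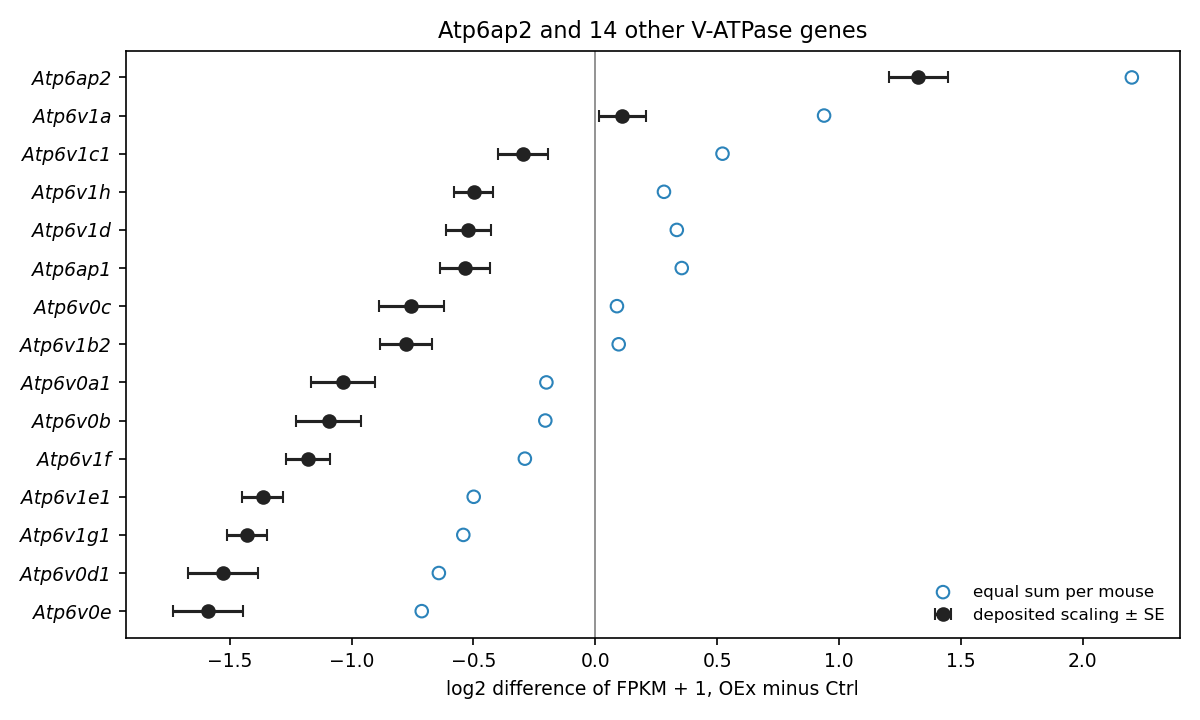
log2 difference of FPKM + 1, OEx minus Ctrl, of Atp6ap2 and 14 other V-ATPase genes, with black points and bars of 1 SE for the deposited scaling and open circles for equal sums. Atp6ap2 lies at 1.33 and the others between -1.59 and 0.11, and equal sums move all of them to the right without changing which gene is highest.

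By level, the order of the 7 genes differed between the genotypes. In Ctrl mice, the means ran from Ren1 (9601 FPKM) over Ace (223), Atp6ap2 (22.2) and Agtr1a (5.09) to Enpep (0.118), Agtr2 (0.0320) and Agt (0). The ranges of neighbours did not overlap down to Enpep, and the last 3 could not be told from each other. In OEx mice, Atp6ap2 (57.7 FPKM), Ace (56.9), Ren1 (15.7) and Agtr1a (14.7) had ranges that overlapped from each to the next. Enpep (0.159) and Agt (0.141) followed, overlapping each other, and Agtr2 was at 0. The place of Ren1 in OEx mice rests on replicate 3: in replicates 1 and 2 it had 3 and 2 reads and lay far below Agtr1a. Enzyme and converting enzyme were the leading transcripts of the system in the Ctrl gland. Substrate RNA was at or near 0 in both.

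Of the aspartic proteases other than renin, 3 of 7 were tested. Cathepsin D (Ctsd), the lysosomal member of the family, was at 213, 216 and 244 FPKM in OEx and at 501, 496 and 604 FPKM in Ctrl mice. It fell by 1.24 on the log2 scale (SE 0.116, limma FDR = 1.58e-04), and with equal sums (-0.34) or upper-quartile scaling (-0.95) it was not called. Bace1 and Bace2, the membrane members, were not called, with differences of 0.48 and -0.35. With equal sums Bace1, at 1.17, was called higher and Bace2 was at 0.32. The other 4 (Ctse, Napsa, Pgc and Pga5) stayed under 1 FPKM in every mouse. None of the 7 was as abundant in the Ctrl gland as renin.

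Of 13 regulators known from the renin promoter, 12 were tested, and limma called 3 higher, 0 lower and 9 not at all. At an FDR under 0.05 without the fold criterion, 6 were higher and 4 lower. At an unadjusted p under 0.05, 7 were higher and 4 lower, and limma-voom called 4 higher and 1 lower. Their median log2 difference was 0.30. Creb1, which mediates the cAMP response of the promoter, was at 4.01, 3.65 and 3.81 FPKM in OEx and at 1.07, 0.899 and 1.43 FPKM in Ctrl mice. It rose by 1.18 (SE 0.124, limma FDR = 2.45e-04), opposite to Ren1. Rbpj, the DNA-binding partner of N1ICD, had a difference of 0.31 (SE 0.103, FDR = 0.0314), and the coactivators Crebbp and Ep300 had 0.74 and 0.89.

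Differences below the fold criterion were negative for Usf1 (-0.97), which binds E-boxes, for Pknox1 (-0.86), a homeodomain factor, for Nr2f6 (-0.76), a nuclear receptor that represses the promoter, and for Usf2 (-0.53). Their FDR values in limma were at most 0.00145. Without OEx replicate 2, Usf1 was at -1.02 and was the 1 regulator called lower. With equal sums Usf1 was at -0.11, Pknox1 at -0.20, Nr2f6 at 0.10 and Usf2 at 0.34, so the signs of Nr2f6 and Usf2 turned. Relative to the median of all rows, all 4 stayed lower under that scaling, at -0.86 to -0.33. Foxd1, a marker of the kidney stroma from which renin cells arise, was listed at 0 in all 6 mice.

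The genes whose profile over the 6 mice was most like that of Ren1 were searched among 4514 rows whose mean reached 10 FPKM. Likeness was the root-mean-square difference of the centred log2(FPKM + 1) values, with a median of 5.66 over those rows. The 8 nearest were 9530053A07Rik (1.0), 9530003J23Rik (1.29), C1rb (1.67), Gm37223 (1.83), C1s2 (2.12), Gsdma (2.31), Mt3 (2.43) and Ms4a5 (2.97). C1rb and C1s2 are copies of the complement proteases C1r and C1s, Gsdma encodes a pore-forming gasdermin and Mt3 a metallothionein. Reads of C1rb and C1s2 may be shared with their near-identical relatives. Because the mice fall into 2 groups, any gene with a large difference correlates with Ren1: Pearson r over the 6 mice was at least 0.95 for 1065 of the 4514 rows, and is given only as a description.

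9530053A07Rik was at 25539, 25480 and 14771 FPKM in the Ctrl mice, above Ren1, and at 6.10, 6.73 and 623 FPKM in the OEx mice. Like Ren1, it was lowest in replicate 3 of the Ctrl mice and highest in replicate 3 of the OEx mice. 9530003J23Rik was at 1440, 1426 and 998 FPKM in the Ctrl mice and was listed at 0, 0 and at 6.73 FPKM in the OEx mice. C1rb was at 1606, 1596 and 948 FPKM in the Ctrl mice and at 1.03, 0.864 and 36.1 FPKM in the OEx mice. The level left in OEx replicate 3 varied among the 8, down to 1.61 FPKM for Mt3 and 0.912 FPKM for Ms4a5, which were at 253 to 289 and at 95.3 to 135 FPKM in Ctrl mice. The ratio of replicate 3 to the mean of the other OEx mice was 97.2 for 9530053A07Rik, 50.5 for Gm37223, 38.0 for C1rb and 35.8 for C1s2. It was 9.83 for Gsdma, 7.03 for Mt3 and 5.27 for Ms4a5, and all of these ratios were below the 655 of Ren1. For 9530003J23Rik, listed at 0 in OEx replicates 1 and 2, no finite ratio exists, so it could not be placed against Ren1.

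**Figure D5:**
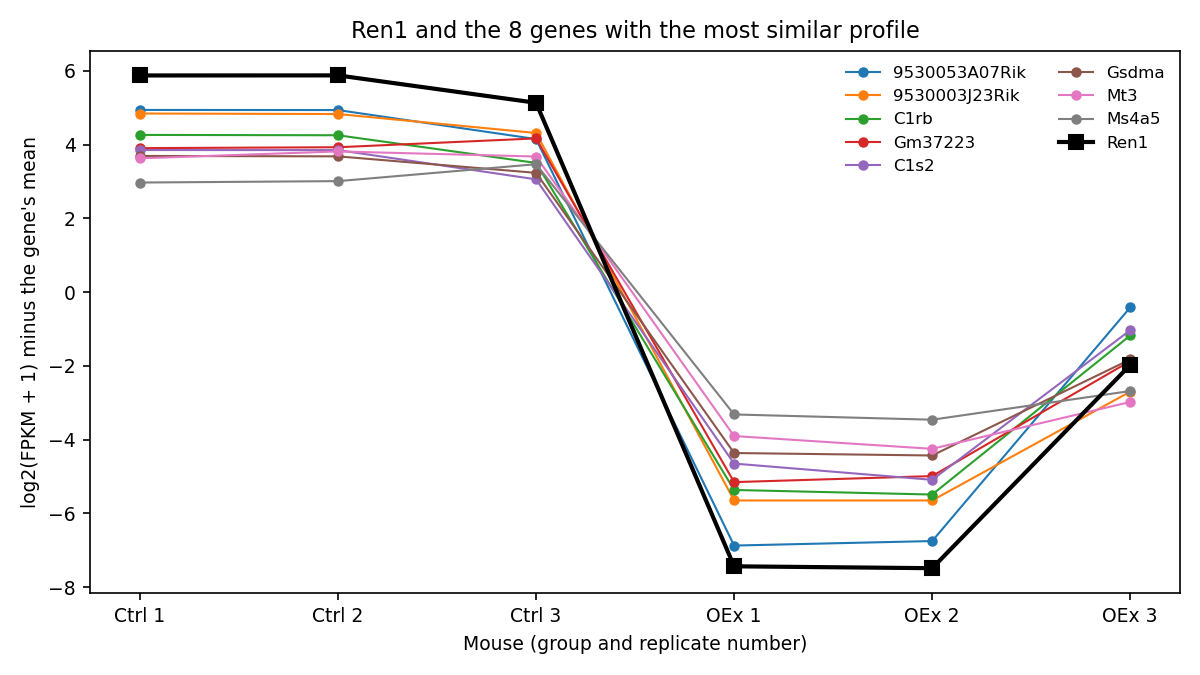
Profiles of Ren1 (black squares) and the 8 genes nearest to it over the 6 mice, as log2(FPKM + 1) minus the mean of the gene, with lines that only join the points of a gene. All 9 profiles are high in the 3 Ctrl mice, lowest in OEx replicates 1 and 2 and higher again in OEx replicate 3, and Ren1 has the widest span.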

How the data were processed

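Total RNA of whole AP from 3 OEx and 3 Ctrl mice was sequenced, 1 library per mouse, from TruSeq libraries on an Illumina HiSeq instrument. The protocol states that secretions were removed from the gland before extraction. The authors deposited 1 FPKM value per gene symbol and mouse, made with an in-house pipeline, and the submitters' processing notes list HISAT2 2.0.5, featureCounts 1.5.0-p3, StringTie 1.3.3b and CASAVA. The genome build and the strand setting are not given in the sources used here. Of 55076 rows, 544 without a gene name, with 0.632% to 1.21% of the FPKM of a mouse, were left out, and 207 rows share a symbol with another.

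Gene positions and exon lengths came from GENCODE M21 (GRCm38). Reads were recovered from FPKM, exon length and the smallest steps of a mouse, and 96.9% to 97.5% of values under 1000 reads were whole within 0.05 reads. These reads gave depths, limits of 3 reads, and 95% intervals, which cover counting error only. The FPKM denominator was 1.22 to 1.34 times these reads in OEx and 0.726 to 0.815 times in Ctrl mice, a scaling between mice that precedes deposition.

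limma 3.58.1 in R 4.3.3 was run on log2(FPKM + 1), which understates changes of low genes, with the group as only term, an intensity trend and Benjamini-Hochberg adjustment over 12553 rows whose mean reached 1 FPKM. Genes were called with an FDR under 0.05 and a log2 difference above 1 in size. The fit was checked on simulated data. Alternatives were a pseudocount of 0.1, no filter, equal sums, upper-quartile scaling, a replicate block, each mouse left out, and limma-voom on recovered reads. In limma-voom the FPKM denominators served as library sizes, which keeps the deposited scaling. Python 3.11.15 was used with matplotlib 3.10.9 for plots and with pandas 2.3.3, numpy 2.4.6 and scipy 1.17.1 for tables.

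The 7 genes and all gene lists were chosen with earlier results of these data known. Named were the 7 genes, called genes of the pathway, protease and regulator lists with others needed to show an arm, the 8 genes nearest to Ren1 by profile, marker genes and Notch1. Some genes of these lists are counted and not reported here by name. Any other gene was named after its values were seen.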

Additional observations from a re-analysis of the deposited data

How the results depend on the processing

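The 4 tested renin-angiotensin genes kept their direction under every alternative run, with log2 differences without 1 mouse of -13.09 to -10.33 for Ren1, -2.23 to -1.84 for Ace, 1.16 to 1.48 for Agtr1a and 1.20 to 1.41 for Atp6ap2. The log2 difference of Ren1 was -13.04 with a pseudocount of 0.1 and -13.97 by limma-voom, since it depends on how values near 0 are treated. With equal sums, Ace was at -1.08, Agtr1a at 2.15 and Atp6ap2 at 2.20, and Atp6ap2 was at 1.61 with upper-quartile scaling. Equal sums called 4418 of all rows higher and 454 lower, and upper-quartile scaling called 1235 lower, against 1604 and 1941. Equal sums turned Ctsa (0.55), Prep (0.16), Nr2f6 (0.10), Usf2 (0.34) and Bace2 (0.32) positive, and called 3 other pathway genes higher and 0 lower, 5 regulators higher and 0 V-ATPase genes lower. Upper-quartile scaling called 2 pathway genes higher and 4 V-ATPase genes lower. A pseudocount of 0.1 called 2 pathway genes higher and 2 regulators lower, and limma-voom 2 and 1. With replicates 1 and 2 averaged, an alternative chosen after the data were seen, 1 regulator was called lower. Without 1 mouse, 1 to 3 pathway genes were called higher (2 without OEx replicate 2 or Ctrl replicate 3, 3 without OEx replicate 3) and 1 to 2 lower (2 without Ctrl replicate 3), 0 to 1 regulators lower (1 without OEx replicate 2) and 6 to 7 V-ATPase genes lower. For the scalings these shifts follow from their construction, and for the others the cause was not tested.

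The replicate numbers did not pair the mice: deviations of same-numbered mice correlated at -0.201, -0.192 and -0.314, and 0 of 6 mice correlated best with their own number. With a replicate block, 1565 rows were called higher and 1906 lower, and Ren1 was at -11.26. Among the lists above, only the smooth muscle genes had another number of calls, 5 lower in place of 6. With 3 mice a group and 2 of them close together in each, the spread between mice is poorly known, and genes under about 10 reads in a mouse could not be compared.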
